A study of Homo sapiens with 68 samples.

Results

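The question here is which hnRNP C targets are still listed when the immunoprecipitation starts from 1000 cells instead of 10000. The comparison uses 4 TLC-CLIP libraries of the 68 in the series, chosen by their titles and labelled cell numbers. TLC-CLIP is a low-input form of CLIP, in which ultraviolet light of short wavelength links proteins to the RNA they touch, an antibody pulls down 1 protein, and the attached RNA fragments are sequenced. All 4 were made from the human embryonic kidney line HEK293T with the hnRNP C1/2 (4F4) antibody, and none of their titles carries the tag for the omission of PAGE, the gel step that selects the protein-RNA complexes. The hnRNPc_10k group (called 10k here) had 10000 cells and 0.001 U of RNase, and the hnRNPc_1k group (1k) had 1000 cells and 0.0001 U, with 2 libraries in each. The enzyme therefore stayed at 0.001 U per 10000 cells, but cell number and total RNase changed together and their effects cannot be told apart. The labels do not say whether the 2 libraries of a group came from separate cultures, so the spread between them may be technical.

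hnRNP C is an abundant nuclear protein that coats newly made transcripts and prefers runs of uridines. It assembles with itself on long RNAs, takes part in sorting transcripts for export and keeps intronic sequences that resemble splice sites from being used. Its targets are therefore spread along introns and long nuclear RNAs, with many shallow sites in each transcript.

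The deposited lists give peaks, each with a gene identifier and a number read here as the reads in the peak. The 10k lists held 264496 and 267111 peaks, with 3389847 and 3338853 listed peak reads. The 1k lists held 175305 and 208968 peaks, with 2017312 and 2397781 peak reads. Both 1k lists were shorter than both 10k lists, and the mean log2 number of peaks was 0.47 lower (-0.47, exact two-sided permutation p = 0.33, the smallest that 2 against 2 libraries allow). The lowest listed number of reads in a peak was 4 in each 10k list and 5 in each 1k list. The number of sequenced reads is not known. Over all lists, the number of peaks at 1k was 0.723 of that at 10k.

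Nearly all well-covered target genes were kept. The 4 lists together named 14361 genes. Of these, 10024 (69.8%) were in all 4 lists, and they held 99.2% of the 10k peak reads and 99.3% of the 1k peak reads. A further 523 genes (3.64%) were in both 10k lists and neither 1k list, and 86 genes (0.599%) were in both 1k lists and neither 10k list. The lost genes were thinly covered: their median was 7.5 reads per 10k library, the highest mean was 45.5 reads, and 59.5% rested on a single peak.

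Of the 11595 genes in both 10k lists, replicate 1 of 1k named 90.1% and replicate 2 named 91.8%, a mean of 91.0% ± 1.24 (SD, n = 2). For scale, 91.8% ± 0.10 of the genes of one 10k library were in the other, and 90.1% ± 2.22 of the genes of one 1k library were in the other. The reproducible 10k genes were already chosen by both 10k libraries, so their share is not the same quantity as the replicate share. In the other direction, 97.8% ± 0.02 of the 10405 genes in both 1k lists were in a 10k list. The 1k gene list was close to a subset of the 10k gene list.

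Gene retention rose with the reads in the gene. Among genes with a mean of 4 to under 10 reads at 10k, 42.6% ± 3.74 were listed at 1k. The share was 71.5% ± 4.83 from 10 to under 20 reads, 93.4% ± 2.35 from 20 to under 50 and 99.7% ± 0.04 from 50 to under 100. All 1844 genes from 100 to under 200 reads, all 2122 from 200 to under 500 and all 1538 of 500 or more were in both 1k lists. No gene with a mean of 100 reads or more at 10k was therefore absent from either 1k list.

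**Figure D1:**
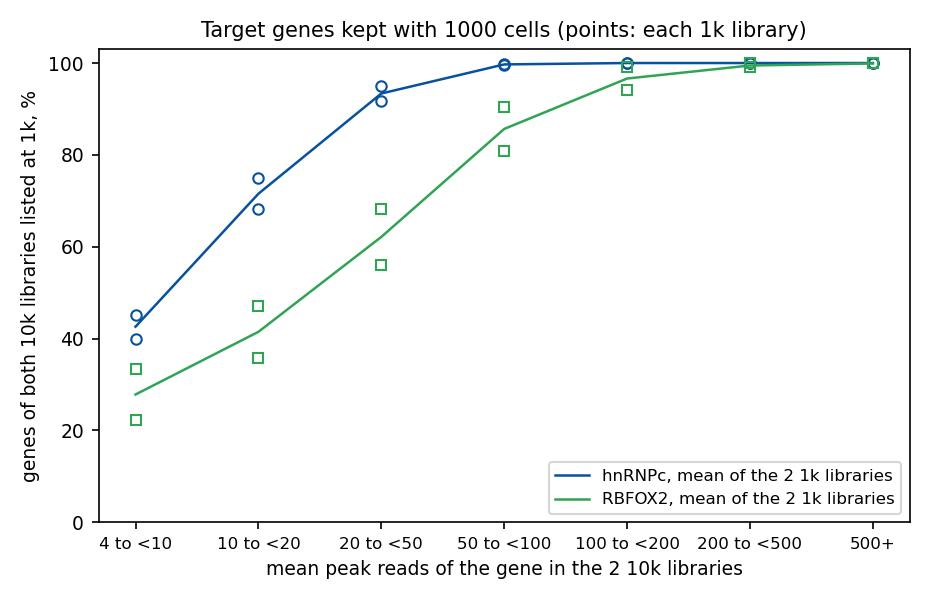
Percent of genes listed in both 10k libraries that each 1k library also listed (y axis), by the mean number of peak reads of the gene in the 10k libraries (x axis, reads), for hnRNP C (circles) and RBFOX2 (squares); lines join the means of 2 libraries. The hnRNP C curve reaches 99.7% at 50 to under 100 reads, where RBFOX2 stands at 85.6%.

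RBFOX2, a splicing regulator that binds a short motif in introns, kept fewer of its genes from 10k to 1k at the same 10k reads. With the same cell numbers and RNase amounts, RBFOX2 kept 77.6% ± 5.21 of 12150 reproducible 10k genes. At 20 to under 50 reads, the RBFOX2 1k libraries listed 56.0% and 68.2% of genes, and the hnRNP C 1k libraries 91.7% and 95.0%. The RBFOX2 1k lists were also shorter, with 49247 and 72602 peaks and 482222 and 703998 peak reads against 2651665 and 3298899 reads at 10k, and the part of that difference in the result was not tested. The libraries of the 2 proteins did not overlap in any read class below 100 reads, but 2 against 2 libraries cannot give an exact permutation p below 0.33.

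The 5 kept genes with the most 10k reads were led by a mitochondrial gene with peaks over chrM:1677-3195 (plus strand, hg19), inside the stretch of the mitochondrial genome that encodes the large ribosomal RNA. Its share was 62290 and 54524 RPM (reads per 1000000 listed peak reads of the library) in the 10k libraries and 70018 and 62548 in the 1k libraries. Both 1k values were above both 10k values, though the lower 1k value was close to the higher 10k value. The log2 difference of 0.18 did not pass the test (limma adjusted p = 0.731). The libraries made without crosslinking (noUV_hnRNPc, from 50000 cells) listed 1302878 and 523006 reads under this gene, which is 205410 and 94962 RPM.

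Of the other genes near the top, 2 had overlapping groups and 2 did not. A gene on the plus strand of chromosome 11 (peaks over chr11:65266521-65273420) had 10858 and 9842 RPM at 10k and 10898 and 9340 at 1k. Its log2 difference was -0.04 (limma adjusted p = 0.954), with the 1k libraries on either side of the 10k libraries. A gene on the minus strand of chromosome 22 (chr22:38879946-38898281) had 5072 and 4695 RPM at 10k and 6091 and 4842 at 1k, which overlap. A gene on the minus strand of chromosome X (chrX:107965461-107975679) had 6621 and 5859 RPM at 10k and 7791 and 7052 at 1k. Both 1k values were above both 10k values there, with a log2 difference of 0.25 that did not pass the test (limma adjusted p = 0.684). The remaining one of the 5 is a gene of chromosome X with 175 to 184 peaks per library. It had 49953 and 52824 RPM at 10k and 54822 and 53316 at 1k, again without overlap. Its log2 difference of 0.07 did not pass the test (limma adjusted p = 0.868). These genes were listed without crosslinking as well. The noUV_hnRNPc libraries had 62429 and 77701 RPM under this last gene, above all 4 compared libraries. They had 9107 and 11385 RPM under the chromosome 11 gene and 4666 and 5047 under the chromosome 22 gene. Under the gene at chrX:107965461-107975679 they had 2006 and 1876 RPM, below all 4.

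Over all genes, the shares of peak reads at 1k and 10k were close. Among 9246 genes with at least 20 reads in 2 or more libraries, the median log2 difference, on the log2(RPM + 10) scale, was -0.06, with quartiles of -0.24 and 0.10. For 9215 genes (99.7%) the difference on that scale was under 1 in size, and the constant of 10 makes the differences of low genes smaller than those of their shares. The SD of 1 library around its group was 0.20 between the 10k libraries and 0.30 between the 1k libraries on that scale. Limma, with Benjamini-Hochberg adjustment at 0.05, called 9 genes higher at 1k (0.0973% of those tested) and 1 gene lower (0.0108%), while 653 genes had an unadjusted p below 0.05. The number called was 1 and 2 without replicate 1 and replicate 2 of 10k, and 206 (50 higher, 156 lower) and 453 (104 higher, 349 lower) without replicate 1 and replicate 2 of 1k. Without a 1k library most calls were thus lower at 1k, not higher. In these fits the lone library of a group is assumed to vary like the other group. In 3544 genes (38.3%) the 2 groups did not overlap, most of them, 2318, with lower values at 1k.

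**Figure D2:**
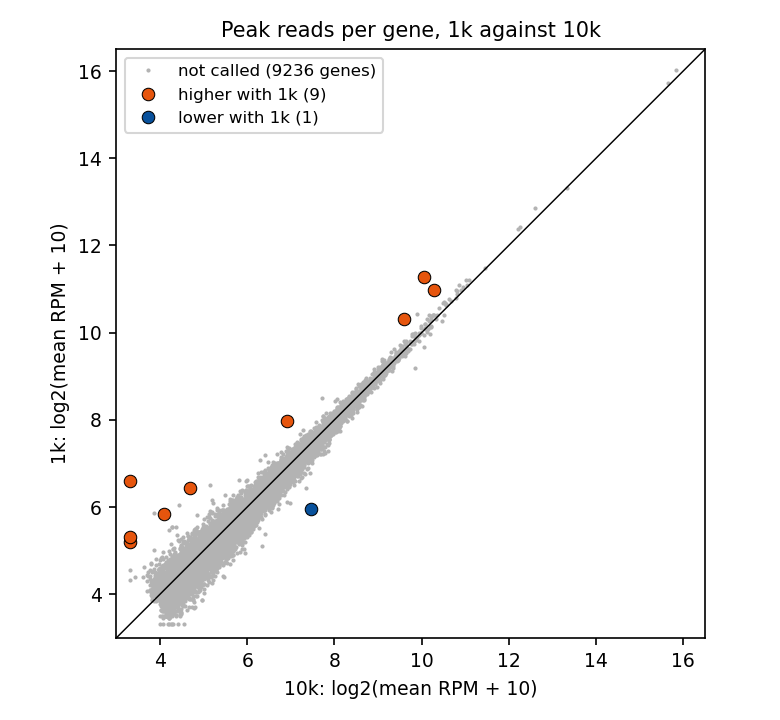
Mean peak reads of 9246 genes at 10k (x axis) and at 1k (y axis), each as log2(RPM + 10), with the line of equality. The 9 genes called higher and the 1 called lower stand away from a narrow band of grey points.

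In each of the 10 called genes the difference lay mostly in one short window. In 7 of them every listed peak of the 4 libraries lay within 162 nt, whereas 129 of the 9246 tested genes (1.40%) had all their peaks within 200 nt and the median gene spread its peaks over 35882 nt. This grouping by span was made after the values were seen. Where a short window is piled high, the lists cut it into touching peaks that repeat the same read number, so the sum over a gene counts those reads once per piece. With touching and near peaks joined and counted once, an alternative added after the data were seen, 6 genes were called and 3 of the 10 remained.

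The gene with the smallest p was ENSG00000166748.8, higher at 1k. In the 4 libraries all its reads lie in 17 nt of chromosome 15 (chr15:87435269-87435285, plus strand). Neither 10k library listed it, and the 1k libraries listed 2 touching peaks of 94 reads each in replicate 1 and 2 touching peaks of 96 reads each in replicate 2. Its fitted log2 difference was 3.27 ± 0.25 (SE, n = 2 per group, limma adjusted p = 0.00032), and 2.61 with joined peaks counted once (limma adjusted p = 0.0018). A fitted difference from a group listed at 0 depends on the constant of 10 and is not a fold change. The gene met the read minimum only through the 1k libraries, so its call marks a difference in listing. The same 17 nt held peaks of 21908 and 27501 reads in the RBFOX2 10k libraries and of 154 and 122 reads in the RBFOX2 1k libraries, so it was high in the RBFOX2 10k libraries and not listed in the hnRNP C 10k libraries. No peak lay there in the hnRNPc_50k_noPAGE, hnRNPc_500_noPAGE or noUV_hnRNPc libraries.

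ENSG00000255090.1 was also listed only at 1k, in 17 nt of chromosome 11 (chr11:122051217-122051233, minus strand). The 1k libraries gave 2 touching peaks of 37 reads in replicate 1 and 2 of 27 reads in replicate 2. None of the RBFOX2 10k and 1k, noUV_hnRNPc, hnRNPc_50k_noPAGE or hnRNPc_500_noPAGE libraries listed it. It passed the test (log2 difference 1.96, limma adjusted p = 0.030) but not with joined peaks counted once (limma adjusted p = 0.433). This gene, too, met the read minimum only through the 1k libraries, so its call marks a difference in listing.

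Another narrow stack was higher at 1k with both antibodies. At chr1:66429524-66429544 (plus strand, 21 nt), the peaks held 28 and 10 reads in the hnRNP C 10k libraries and 88 and 122 in the 1k libraries, where 2 touching peaks repeat their reads. The sum over the whole gene was 28 and 20 reads at 10k and the same as in the window at 1k. That is 8.26 and 5.99 RPM per gene against 43.6 and 50.9, with no overlap (log2 difference 1.74 ± 0.25, limma adjusted p = 0.030, and 0.706 with joined peaks counted once). For RBFOX2 all reads of the gene lay in the window, 26 and 64 at 10k and 915 and 846 at 1k (log2 difference 5.98, limma adjusted p = 0.00062). These RBFOX2 sums repeat reads too, over 1 and 2 peaks at 10k and 3 peaks in each 1k library. The highest single peak held 26 and 32 reads at 10k and 305 and 282 at 1k. A gained gene on chromosome X, with 1 stack of 18 nt at chrX:42377211-42377228 (plus strand) holding 50.0% of its reads, had 24 and 36 reads in the hnRNP C 1k libraries and 96 and 80 in the RBFOX2 1k libraries. These sums repeat reads as well: the highest peak of the stack held 6 and 9 reads for hnRNP C and 24 and 20 for RBFOX2. The gene was listed in none of the 10k libraries of either protein. Its hnRNP C difference did not pass the test over all genes (log2 difference 1.23, limma adjusted p = 0.375).

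The only gene called lower was ENSG00000199347.1, within 54 nt of chromosome 1 (chr1:11968248-11968301, plus strand). Its level was 169 and 166 RPM at 10k and 60.5 and 44.2 at 1k, with no overlap, and its log2 difference was -1.52 ± 0.17 (limma adjusted p = 0.0091). Each 10k library listed 3 peaks there and each 1k library 1 peak. With joined peaks counted once the difference was -0.23 (limma adjusted p = 0.820). The libraries without crosslinking listed 575 and 439 reads under this gene, which is 90.7 and 79.7 RPM.

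2 of the called genes share one window on chromosome 11. Genes with peaks at chr11:62609188-62609281 and at chr11:62609121-62609282, both on the minus strand, overlap, and their reads cannot be told apart. The first had 797 and 1318 RPM at 10k and 2691 and 2233 at 1k (log2 difference 1.25, limma adjusted p = 0.030). Both differences were lost with joined peaks counted once, at 0.35 for the first and 0.39 for the other (limma adjusted p = 0.706 and 0.606). The 10k libraries listed 2 and 3 peaks under the first gene and the 1k libraries 5 and 4.

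2 more lie together on chromosome 1. A gene with all its peaks at chr1:28833939-28834043 (plus strand) lies inside the span of another, chr1:28832557-28836061. The wider gene had 850 and 689 RPM at 10k and 1227 and 1306 at 1k (log2 difference 0.72 ± 0.11, limma adjusted p = 0.032). Its difference held with joined peaks counted once (0.92, limma adjusted p = 0.0017). Within it, 159 nt at chr1:28835069-28835227 held 36.2% and 38.2% of the reads at 1k and 1.46% and 3.31% at 10k. Some peaks of this region are listed under a further gene as well. The third gene still called with joined peaks counted once had 1 peak at chrX:118921378-118921425 (minus strand), with 69 and 46 reads at 1k and none listed at 10k. That gene met the read minimum only through the 1k libraries, so its call marks a difference in listing. In the last called gene, on chromosome 3, 150 nt at chr3:39452543-39452692 held 62.7% and 44.5% of the reads at 1k and 18.4% and 25.5% at 10k.

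The 5 lost genes with the most reads had 2 to 9 peaks in each 10k library, spread over 4489 to 125362 nt. A gene on chromosome 19 (peaks over chr19:12876128-12912619, minus strand) had 9 and 6 peaks with 60 and 31 reads at 10k and none at 1k. A gene on chromosome 10 (chr10:51242008-51367369, minus strand) had 7 peaks and 33 reads in each 10k library and none at 1k. Both are listed in the hnRNPc_500_noPAGE libraries, the first with 20 and 4 reads and the second with 132 and 120. The titles and the labels of those libraries give different cell numbers, so their input is uncertain. None of the 5 lost genes with the most reads passed the test (limma adjusted p of 0.566 to 0.684). Each therefore stands as a listing difference and not as a measured change in level.

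Kept genes had fewer peaks at 1k. Over the 10024 kept genes, the number of peaks at 1k was a median of 0.711 of that at 10k (quartiles 0.6 and 0.837), next to 0.723 for all peaks. In the 3611 kept genes with at least 20 peaks in both 10k libraries the median was 0.714.

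Single sites were kept far less often than genes. Joining overlapping peaks of the 4 lists gave 554772 sites. All 4 libraries listed 37654 of them (6.79%), which held 40.5% of the 10k peak reads and 44.9% of the 1k peak reads. Both 10k libraries and neither 1k library listed 34085 sites, and the reverse held for 9873. One library alone listed 355979 sites (64.2%), with 23.9% of the 10k and 22.5% of the 1k peak reads. The peaks of replicate 1 of 10k that replicate 2 overlapped numbered 114034, and 50.0% ± 2.26 of them were overlapped by a 1k library, against 10.5% when moved by 1000 nt. Of 66550 reproducible 1k peaks, 68.8% ± 0.60 were overlapped by a 10k library, against 14.5% when moved. For RBFOX2, 29.5% ± 4.14 of 64771 reproducible 10k peaks were overlapped at 1k, against 5.00% when moved.

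Whether a site was found again followed the reads in its peak. Of 10k peaks with 4 or 5 reads, 10.5% were overlapped by a 1k library, and 16.6% by the other 10k library. At 12 to 19 reads these shares were 51.6% and 66.5%, at 20 to 49 reads 78.5% and 88.0%, and at 50 to 199 reads 94.6% and 97.3%. In each of these classes every 10k library was recovered less by the 1k libraries than by its own replicate. Peaks of 200 reads or more did not rise further at 1k: 93.7% were found there (range 92.8% to 94.5%) and 98.0% in the other 10k library. In that highest class the 1k peaks were found in 95.2% of cases at 10k and in 98.4% in the other 1k library.

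**Figure D3:**
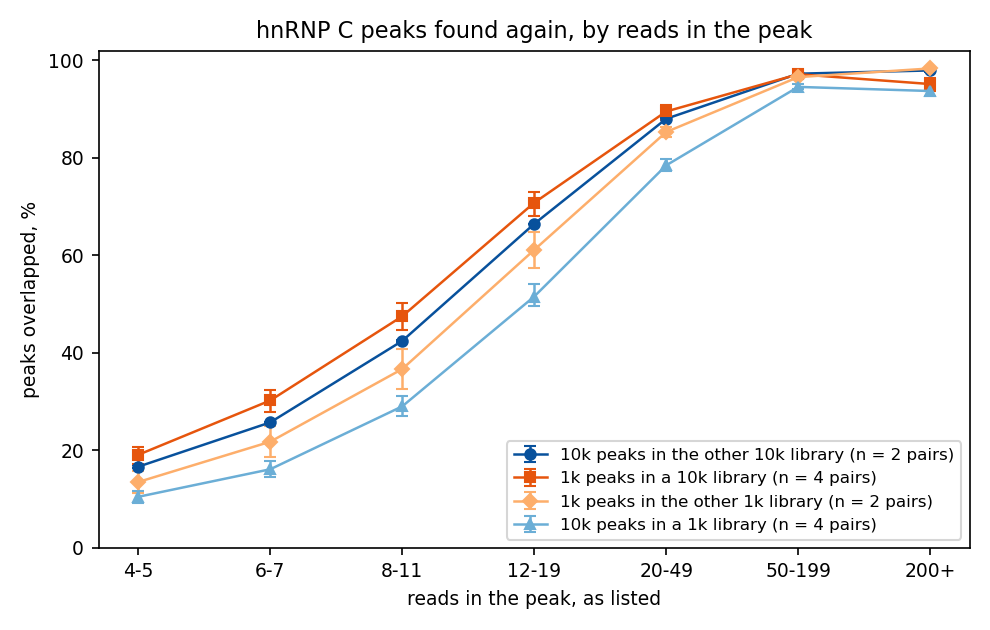
Percent of hnRNP C peaks overlapped by at least 1 nt in another library (y axis) by the listed reads in the peak (x axis); points are means over 2 or 4 library pairs and bars run from the lowest to the highest pair. All 4 curves reach 93.7% or more in the highest class, and the peaks of 10k libraries looked for in 1k libraries lie lowest in every class.

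Longer lists overlap more by their length alone, so lists of equal length were compared too. With the 100000 peaks of most reads from each list, 51.6% of the peaks of one 10k library were in the other, 39.8% of the peaks of one 1k library were in the other, and the overlap between groups was 43.9% for 10k peaks and 43.8% for 1k peaks. With 10000 peaks the same shares were 66.1%, 57.2%, 59.5% and 59.6%. At 10000, 50000, 100000 and 150000 peaks, the overlap between the groups lay between the overlap of the 10k replicates and that of the 1k replicates. A 1k list thus shared more of its peaks with a 10k list than with the other 1k list in the means of these 4 lengths. The comparison of all 4 curves shares the same 4 libraries, and no test was made.

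**Figure D4:**
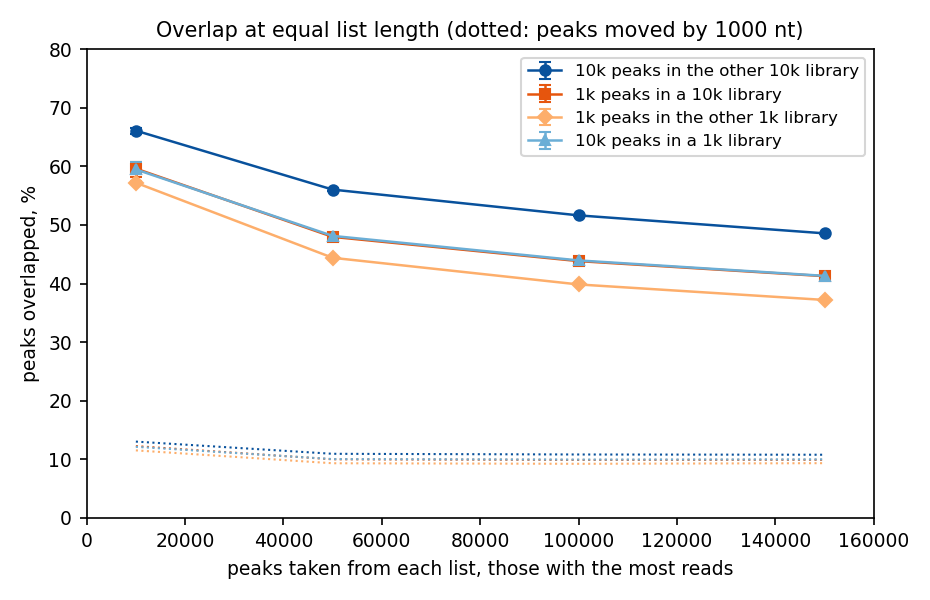
Percent of peaks overlapped (y axis) when each list is reduced to the same number of peaks with the most reads (x axis); bars run from the lowest to the highest pair, and dotted lines give the overlap after moving the peaks by 1000 nt. The curves between the groups coincide and lie between the 10k replicates above and the 1k replicates below.

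Sites called changed were all present in one group only. Among 18734 sites with at least 20 reads in 2 or more libraries, limma called 11 higher at 1k (0.0587%) and 6 lower (0.032%), and 1351 had an unadjusted p below 0.05. All 17 called sites were listed in neither library of the other group. Each met the minimum of 20 reads only through the group that listed it, so these calls mark differences in listing. Their fitted size depends on the constant of 1 added to the values. The 17 sites fell in 6 genes. The mitochondrial gene held 5 and 2 genes of chromosome X held 6. In 10 of the 17, a peak of the other group in the same gene lay within 100 nt, and in 1 the other group had no peak in the gene. The near ones were mostly sites gained at 1k. For the 6 sites lower at 1k, the nearest 1k peak lay 65, 109, 217, 359, 487 and 912 nt away. The count fell to 0 without either 1k library and rose to 513 (12 higher, 501 lower) without replicate 1 and 510 (11 higher, 499 lower) without replicate 2 of 10k. With peaks of p below 1e-05 it was 1291, with 144 higher and 1147 lower, so the balance of directions turned in these settings.

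The lost site with the most reads was at chrM:2833-2892 (plus strand), with 12873 and 11160 summed reads at 10k and none at 1k. The nearest 1k peak in the gene was 217 nt away. The libraries without crosslinking had 209143 and 85355 reads there. The 4 gained sites with the most reads lay downstream in the same transcript, were 3 to 5 nt wide and ended 1 to 9 nt from a 10k peak. One of them, chrM:3110-3113, had 2237 and 2789 reads at 1k. At these 4 gained sites the 1k and 10k lists differed in where peaks began and ended. The lost and gained sites with a mean of 50 or more reads were few, 37 and 23. Of these, 62.2% and 65.2% had a peak of the other group in the same gene within 100 nt, compared with 30.3% and 44.7% of those with 4 to under 20 reads.

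The lost sites with the most reads outside that gene and the chromosome X gene with 175 to 184 peaks lay on chromosome 11. At chr11:65267251-65267288 (plus strand) the 10k libraries had 324 and 256 reads and the 1k libraries none, with the nearest 1k peak 487 nt away. At chr11:65267079-65267111 they had 303 and 254 reads against none, with the nearest 359 nt away. The hnRNPc_50k_noPAGE libraries listed both places, with 827 and 1259 reads at the first and 486 and 1043 at the second. In the same gene chr11:65270300-65270338 was listed only at 1k, with 234 and 275 reads, 86 nt from a 10k peak. These sites went in both directions within a gene whose summed level did not pass the test.

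Peaks were slightly wider in the 1k lists but not at the same sites. The median width was 55 nt in both 10k lists and 57 nt in both 1k lists, a difference of 2 nt (exact permutation p = 0.33, the smallest possible). At the 25920 sites with exactly 1 peak in every library, the medians were 62 and 62 nt at 10k and 59 and 60 nt at 1k. The median difference there was -2.5 nt, with 54.8% of sites narrower and 44.0% wider at 1k. The library medians at shared sites did not overlap between the groups, and their order was opposite to that of the list medians. At a single site the 10k replicates differed by a median of 17 nt.

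Other libraries of the series show which sites recur. The groups used differ from 10k and 1k in the gel step, RNase amount, cell number, crosslinking or antibody. The hnRNPc_50k_lowRNase libraries, at 0.005 U and without the tag for the omission of PAGE, were not among them. To hold the reads alike, only peaks of 10 to 19 reads were used, a class among the listed alternatives. Of kept 10k peaks, 67.9% ± 1.16 were overlapped in hnRNPc_50k_noPAGE (50000 cells, 0.005 U), and of lost 10k peaks 49.3% ± 1.16. The corresponding shares were 70.7% ± 1.53 and 54.2% ± 3.45 in hnRNPc_50k_mediumRNase (0.025 U), and 51.5% ± 0.52 and 32.4% ± 0.48 in hnRNPc_500_noPAGE. Peaks of 10k replicate 1 found in no other of the 4 libraries stood lower, at 36.3% ± 1.46 in hnRNPc_50k_noPAGE, and any class moved by 1000 nt gave 17.7% to 18.0% there. Lost sites were thus listed in other hnRNP C libraries more often than moved peaks and less often than kept sites, in both libraries of each group. Median reads were 14 in the kept peaks and 12 in the lost ones, so the match is not exact.

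Gained sites recurred less than kept ones. Of the 2215 gained 1k peaks of 10 to 19 reads, 41.6% ± 0.96 were in hnRNPc_50k_noPAGE, against 72.9% ± 1.17 of kept 1k peaks and 34.6% ± 0.17 of peaks in 1k replicate 1 alone. The kept peaks also recurred without crosslinking: 38.5% ± 6.68 of kept and 30.5% ± 6.58 of lost 10k peaks were in noUV_hnRNPc. In each of its libraries the kept share was the higher, at 43.2% against 35.1% in replicate 1 and 33.8% against 25.8% in replicate 2. A peak of the hnRNP C antibody without ultraviolet light is the background for these shares.

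In this class of reads the lost sites also stood apart from the kept ones in the libraries of another protein. Lost 10k peaks were overlapped by 26.5% and 27.1% in the 2 hnRNPA1_50k_noPAGE libraries, and kept peaks by 19.3% and 20.0%, where moving gives 17.6% and 18.8%. Over all reads the order was not seen, with 22.6% ± 0.27 of lost and 22.7% ± 0.59 of kept 10k peaks in hnRNPA1_50k_noPAGE, and with p below 1e-05 it turned, to 25.4% ± 0.45 of lost and 27.3% ± 0.55 of kept. After moving, the shares were 14.5% and 20.5% over all reads and 19.0% and 24.3% with p below 1e-05. The lost peaks thus stood farther above their moved share than the kept peaks did in both settings, whatever the order of the unmoved shares. hnRNPA1 is another abundant nuclear RNA-binding protein, which prefers motifs built around AG. Peaks of 10k replicate 1 alone were at 27.0% ± 0.62, and the gained 1k peaks at 18.1% ± 1.60, against 21.4% ± 0.56 of kept 1k peaks. Peaks of 1k replicate 1 alone were at 19.0% ± 0.79, with 17.7% when moved. For hnRNPI (11.4% lost, 10.5% kept) and RBFOX2 (7.10% lost, 6.82% kept) the shares stood close together and near those of moved peaks. With 2 libraries on each side, no exact permutation p below 0.33 is possible for any of these pairs.

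**Figure D5:**
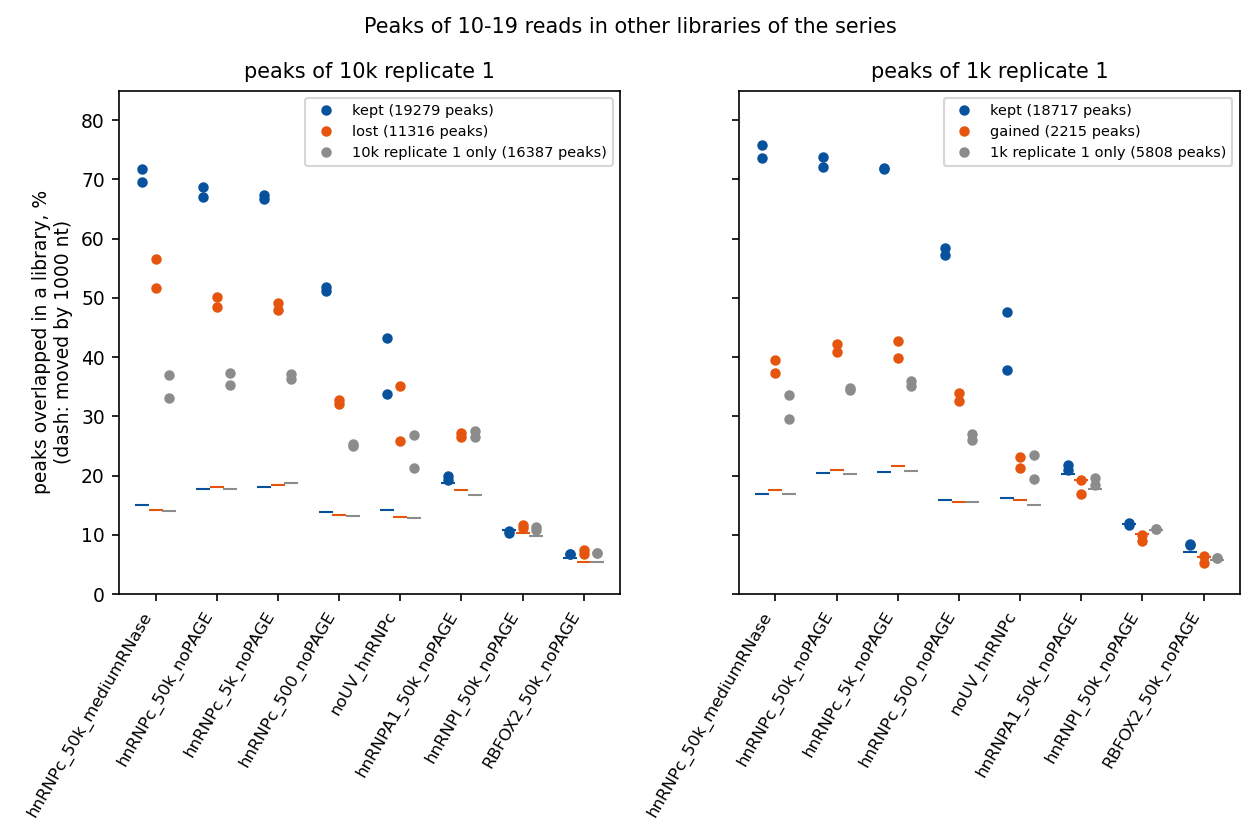
Percent of peaks with 10 to 19 reads from 10k replicate 1 (left) and 1k replicate 1 (right) that were overlapped in other libraries of the series (y axis); each point is 1 of the 2 libraries of the group on the x axis, and dashes give the share after moving the peaks by 1000 nt. Kept peaks lie above lost, gained and single-library peaks in the hnRNP C groups made with crosslinking, while lost 10k peaks lie above kept ones in hnRNPA1_50k_noPAGE.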

How the data were processed

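TLC-CLIP peak lists of 24 HEK293T libraries were used, of which 4 are compared. The authors deposited 1 peak list per library, on hg19 per the submitters' processing notes, which also name STAR 2.7.3a, UMI-tools 1.0.1 and bcl2fastq without their roles. The caller is CLIPper by the names of the lists. The deposited p-value is the caller's own for each peak. The last number in the peak name was read as reads in the peak, and its meaning is not stated, so no count model was used. The sequencing depth is unknown.

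An overlap needed 1 nt or more in common on one strand. Sites are joined overlapping peaks of one gene. Reads were summed per gene or site and scaled to 1000000 listed peak reads (RPM). They were tested with limma 3.58.1 (R 4.3.3, trend) as log2(value + 10) for genes and log2(value + 1) for sites, with at least 20 reads in 2 libraries, in a fit of the 4 libraries, and adjusted by Benjamini-Hochberg. The script was tested on simulated data. A fit with RBFOX2 added gave the difference between proteins. Python 3.11.15 computed overlaps.

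0 of 14361 gene identifiers matched the gene table at hand, so the gene lists, cell type markers and HNRNPC could not be looked up, genes are given by position, and no sequence is printed. Named genes are the called ones, the 5 kept, lost and gained with the most reads, with identifiers for at most 2 that rose and 2 that fell. Named sites are the 5 kept, lost and gained with the most reads and the 5 with the smallest adjusted p in each direction. The groups, lists and rules were chosen with earlier results of these data known. Alternatives were stricter p-values, other read minimums, constants, scalings and overlaps, equal list lengths, a replicate block and leaving out each library.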

Additional observations from a re-analysis of the deposited data

Results flagged for a closer look

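The change in the median width of listed peaks from 10k to 1k went in opposite directions for hnRNP C and RBFOX2, but not with near peaks joined. It was 2 nt for hnRNP C (55 and 55 nt at 10k, 57 and 57 nt at 1k) and -10 nt for RBFOX2 (66 and 64 nt at 10k, 56 and 54 nt at 1k), a difference of 12 nt between the proteins. Every 1k library of one protein moved one way and every 1k library of the other moved the opposite way. With peaks under 30 nt apart joined, the medians for RBFOX2 were 68 and 67 nt at 10k and 69 and 69 nt at 1k. Those for hnRNP C were 55 and 56 nt at 10k and 58 and 58 nt at 1k, so the directions were then the same. The difference between the proteins was not tested.

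The 17 nt stack of ENSG00000166748.8 differed between the proteins. Its log2 change from 10k to 1k was 3.27 for hnRNP C and -5.82 for RBFOX2, a difference of -9.09 ± 0.20 (SE, limma adjusted p = 3.4e-06). It was the only gene of 11431 whose change differed between the proteins after adjustment, while 1497 had an unadjusted p below 0.05. Touching peaks repeat their reads at this place, so these sums count reads more than once. The hnRNP C change starts from 0 listed reads at 10k, so its size depends on the constant of 10.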

How the results depend on the processing

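Called genes (10) numbered 2 with a constant of 1, 0 with genes of at least 4 reads in 1 library, 0 with peaks of p below 1e-05, 0 with peak numbers in place of reads and 6 with joined peaks counted once. They numbered 1 and 2 without replicates 1 and 2 of 10k, and 206 and 453 without replicates 1 and 2 of 1k, most of them lower (156 and 349). Called sites (17) numbered 5 with a constant of 0.1, 29 with at least 50 reads, 5 with at least 4 reads in 1 library and 1291 with p below 1e-05, of which 1147 were lower. Leaving out a library gave 0 to 513 sites. Same-numbered replicates deviated together with r = 0.05 for genes and 0.04 for sites, so the numbers do not pair the libraries, and the replicate block gave 41 genes and 5 sites. The cause of these changes was not tested. Genes kept (91.0%) were 86.4% with p below 1e-05, 99.1% for genes of at least 20 reads in both 10k libraries (added later) and 85.9% to 91.8% without 1 library. Peaks kept (50.0%) were 53.8% with p below 1e-05, 42.4% with 50% of the peak overlapped, 74.3% and 61.2% for the 10000 and 100000 peaks of most reads, and 31.5% to 51.6% without 1 library, where a single 10k library defines the peaks. The 1k peaks found at 10k (68.8%) were 78.5%, 60.4% and 79.8% with p below 1e-05, 50% overlap and 10000 peaks, and 41.9% to 69.3% without 1 library. RBFOX2 genes kept were 57.1% with p below 1e-05, and RBFOX2 peaks kept 24.0% with 50% overlap. The width difference was 0 nt with p below 1e-05. Sites in hnRNPc_50k_noPAGE over all reads were 71.5% of kept, 40.4% of lost and 33.9% of gained, and with p below 1e-05 83.2%, 62.0% and 52.8%. At 10 to 19 reads they were 67.9%, 49.3% and 41.6%. The lower number of peaks at 1k kept its direction under all alternatives run. None of the 10 called genes reversed, nor did any of the 10 called sites with the smallest adjusted p. The other named genes and sites were not followed through the alternatives. Sequencing depth is unknown, so a site missing at 1k cannot be told apart from one too shallow to list.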
